A study of Mus musculus with 13 samples.

Results

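The genes that flank Kmt2d on mouse chromosome 15 were compared between mice that carry a gene trap in Kmt2d and their wild-type controls. The list holds 47 protein-coding neighbours, 21 before and 26 after Kmt2d in RefSeq gene order, from the amino acid transporter gene Slc38a1 to the transcription factor gene Atf1. A member was measured where the platform annotation gives a probe set to that gene alone, which held for 43 of the 47, among 19938 such genes in the whole series. Where a gene had several probe sets of its own, the one with the highest mean over all 13 arrays stood for it, so no genotype value entered the choice. The other 4 members, the tubulins Tuba1b and Tuba1c, the milk protein gene Lalba and the formin gene Fmnl3, had no such probe set and are not analysed here.

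Whole hippocampus of 13 mice labelled C57BL/6J, aged 1 to 2 months and fed standard chow, was profiled on Affymetrix arrays, with 1 mouse per array. In experiment 1, 4 wild-type (Kmt2d+/+) and 3 heterozygous (Kmt2d+/Bgeo) mice had no injections, and their RNA was extracted with a Qiagen RNeasy kit. In experiment 2, 3 wild-type and 3 heterozygous mice received saline 3 times a day, serving as vehicle controls for other work, and their RNA was extracted with TRIzol and a spin column. The labels give female for 12 mice and an unknown sex for wild-type mouse 3 of experiment 1. The strain of the cells that first carried the trap and the length of chromosome inherited with it were not given in the sources used.

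Kmt2d encodes a methyltransferase that places methyl groups on lysine 4 of histone H3, mostly at enhancers, and its loss in people causes Kabuki syndrome. A gene trap is an inserted cassette whose splice acceptor and polyadenylation signal divert the transcript of the host gene, here into the Bgeo reporter. An inserted cassette can in principle also touch genes beside it, through its own regulatory sequence or through the stretch of chromosome that is inherited with it. Measuring the neighbours in the same mice shows how far their array signal differs between the genotypes.

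Values are log2 intensities, on which a difference of 1 is a doubling of signal. Genotype differences are heterozygous minus wild type, given with the standard error (SE) from limma and with Benjamini-Hochberg adjusted p-values taken over all 19938 genes. The RNA of a whole hippocampus mixes many cell types, so fewer cells of a type and less RNA per cell cannot be told apart. Defining genes of hippocampal neurons were well above the array medians of 6.74 to 7.08 on every array, with the dentate granule cell gene Prox1 at 8.21 to 10.28, the CA1 gene Wfs1 at 9.88 to 10.88 and the CA2 gene Rgs14 at 8.94 to 9.74. One array stood apart in its striatal neuron genes. Wild-type mouse 2 of experiment 1 had the mean of 6 such genes 2.13 above the mean of its experiment. The other 6 mice lay between -0.50 and -0.23. Further marker lists varied too. In experiment 1 the mean of 8 dentate granule cell genes was -0.58 to 0.04 in wild-type and 0.17 to 0.27 in heterozygous mice. That of 9 choroid plexus genes was -0.71 to 0.88 and -0.70 to -0.34. In experiment 2 the dentate means were -0.24 to 0.15 and -0.12 to 0.11. The choroid plexus means there were -1.09 to 0.56 and -0.29 to 0.80. Their part in the members' values was not tested.

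Kmt2d itself was read by 2 probe sets that went different ways. Probe set 10432294 was at 7.87, 7.87, 7.87 and 7.90 in the wild-type and 7.36, 7.17 and 7.47 in the heterozygous mice of experiment 1. The values of experiment 2 were 8.76, 8.32 and 8.51 against 7.88, 8.0 and 8.18. In each experiment the highest heterozygous value was under the lowest wild-type one, and the differences were -0.55 ± 0.11 and -0.51 ± 0.12 log2 units (SE). Over both experiments the exact permutation p was 0.00143, the smallest the 700 regroupings can give, and the limma adjusted p over all probe sets was 0.427. Probe set 10432298 was at 9.82, 9.82, 9.83 and 9.82 in wild-type and 9.84, 9.95 and 9.93 in heterozygous mice of experiment 1, and at 9.46, 9.62 and 9.82 against 9.80, 9.77 and 9.49 in experiment 2. There the heterozygous values were just above the wild-type ones in experiment 1 and overlapped them in experiment 2. The sources used do not say on which side of the trap either probe set lies, so the check of the genotype labels rests on the first probe set alone.

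None of the 43 measured neighbours passed the threshold of an adjusted p under 0.05 in either experiment or over both. In experiment 1 the count was 0 of 43, against 0.0201% of all genes called by limma. The count in experiment 2 was 0 of 43, against 0% of all genes, and over both experiments 0 of 43, against 0%. The all-gene counts behind these shares depended on single mice, with 48 calls in place of 4 in experiment 1 without wild-type mouse 2, and 91 in place of 0 in experiment 2 without heterozygous mouse 1, while the count of members was 0 in both cases. At an unadjusted p under 0.05, limma gave 2 members in experiment 1 (all genes, 3.5%), 2 in experiment 2 (all genes, 10.2%) and 3 over both (all genes, 5.25%), which are 4.65%, 4.65% and 6.98% of the members. Each of these shares rests on 2 or 3 genes. The sign was positive for 28 of 43 members in experiment 1 (all genes, 57.5%), 21 in experiment 2 (all genes, 47.1%) and 23 over both (all genes, 51%). The median difference of the members was 0.018 in experiment 1 (all genes, 0.015), -0.003 in experiment 2 (all genes, -0.011) and 0.005 over both (all genes, 0.002).

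The intervals show which sizes of difference in signal these arrays leave room for. Over both experiments the 95% interval of every one of the 43 members lay within 0.38 log2 units of 0 (1.30-fold), the widest bound being that of Rhebl1, and the median member's outer bound was 0.20 (1.15-fold). In experiment 1 the widest bound was 0.48 (Asic1, 1.39-fold) and in experiment 2 it was 0.65 (Atf1, 1.57-fold). In each of the 3 comparisons all 43 intervals stayed within 1 log2 unit of 0, a doubling. The intervals are per gene and not adjusted for the number of genes. They bound the signal, which for dim members need not follow the transcript. In wild-type mice of experiment 1, Dnajc22 was at 4.84, Rhebl1 at 5.67 and Prph at 6.48. These means lay under the array medians of that experiment, 6.74 to 6.9. Of the 43 members, 27 lay above the dimmest 50% of genes. The median SD of the members between mice of a group was 0.091 in wild-type (all genes, 0.103) and 0.067 in heterozygous mice (all genes, 0.078) of experiment 1. In experiment 2 it was 0.118 (all genes, 0.13) and 0.112 (all genes, 0.152).

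**Figure D1:**
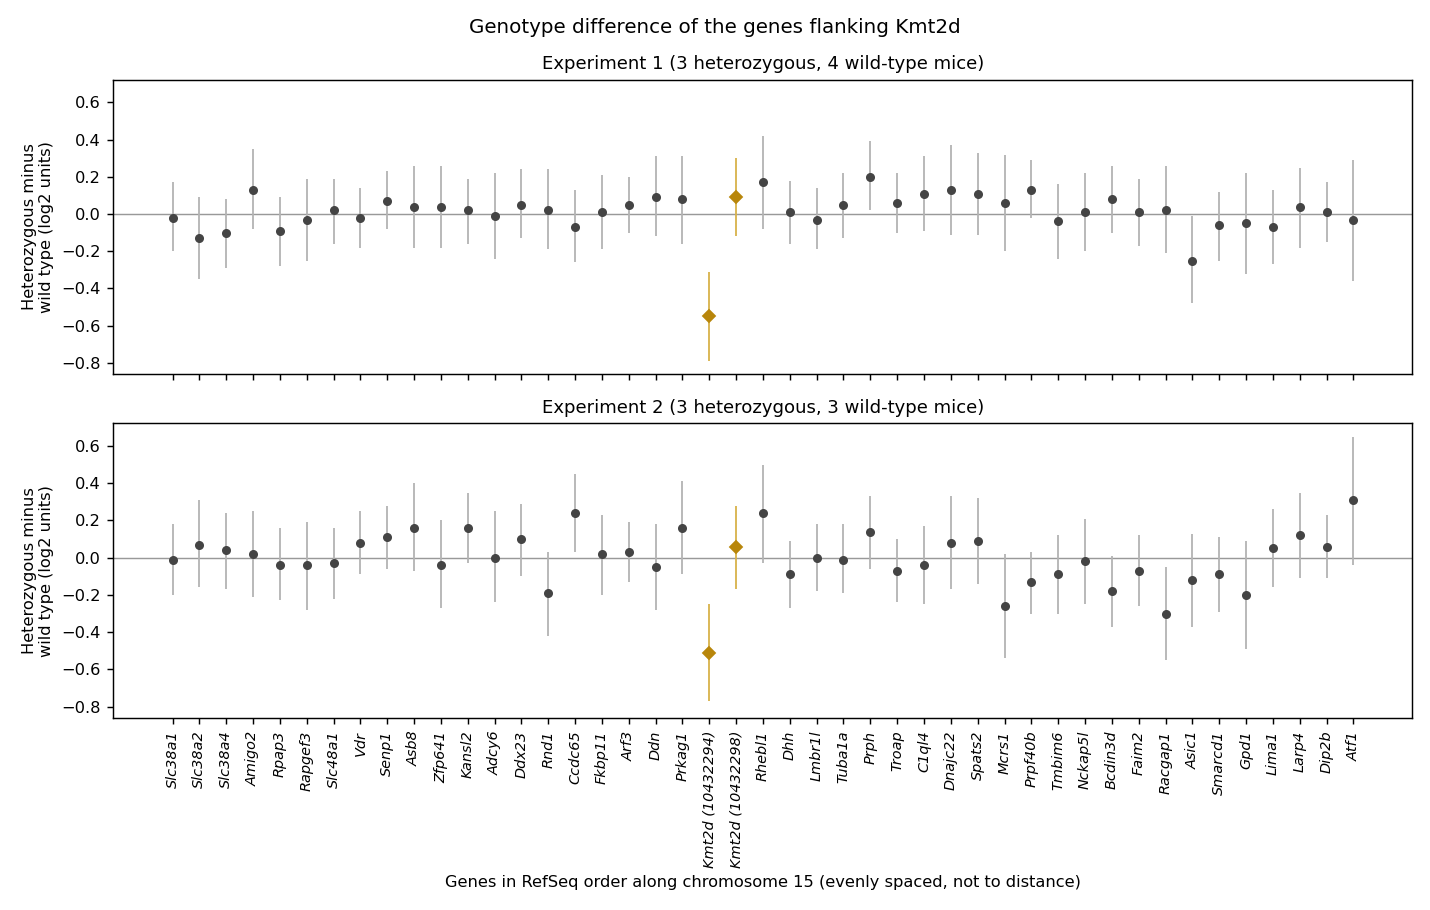
Genotype difference (heterozygous minus wild type, log2 units, vertical axis) with its 95% limma interval for the 43 measured neighbours, in RefSeq order along the horizontal axis and evenly spaced, in experiment 1 (top) and experiment 2 (bottom). Diamonds are the 2 probe sets of Kmt2d. Probe set 10432294 stands at -0.55 and -0.51, while the neighbours on both sides stay between -0.25 and 0.20 in experiment 1 and between -0.30 and 0.31 in experiment 2.

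The members closest to Kmt2d come first, in order of their distance in genes. On one side lies Prkag1, which encodes a regulatory subunit of the AMP-activated protein kinase. It was at 10.43, 10.21, 10.49 and 10.34 in wild-type and 10.54, 10.43 and 10.36 in heterozygous mice of experiment 1, and at 9.39, 9.56 and 9.31 against 9.35, 9.56 and 9.83 in experiment 2. The genotypes overlapped in both experiments, with a difference of 0.11 ± 0.08 (SE) over both and limma adjusted p = 0.934. Its next neighbour Ddn encodes dendrin, a protein of dendrites and postsynaptic sites. Ddn was at 12.31, 12.31, 12.45 and 12.39 against 12.42, 12.43 and 12.53 in experiment 1, and at 11.90, 12.18 and 12.22 against 12.16, 12.16 and 11.83 in experiment 2, again with overlap in both.

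On the other side lies Rhebl1, a small GTPase related to Rheb, the activator of mTORC1. In experiment 1 it was at 5.73, 5.59, 5.73 and 5.64 in wild-type and 5.83, 5.90 and 5.79 in heterozygous mice, so that all heterozygous mice were above all wild-type mice. In experiment 2 it was at 5.81, 6.36 and 6.41 against 6.45, 6.47 and 6.36, with wild-type mouse 1 well below the others and heterozygous mouse 3 level with wild-type mouse 2. All 6 heterozygous mice were above the wild-type mean of their experiment, by 0.20 ± 0.08 (SE) over both, a 1.15-fold difference. The share of all genes with all 6 on 1 side was not counted, for Rhebl1 or for the genes below. The exact permutation p was 0.00571, and the limma p was 0.0298 before and 0.913 after adjustment over all genes. Without wild-type mouse 1 of experiment 2 the difference was 0.12 over both experiments and 0.04 in experiment 2, against 0.24 in experiment 2 with it. Adjusted p over the alternatives for both experiments ranged from 0.338 to 0.997. Genotypes did not overlap in experiment 1 for 4 of the 43 members (all genes, 7.22%), all of them higher in heterozygous mice (all genes, 4.47%), namely Rhebl1, Prph, Dnajc22 and Prpf40b. In experiment 2 they did not overlap for 3 members (all genes, 9.48%), namely Ccdc65, Asic1 and Bcdin3d.

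Beyond Rhebl1, the nearest members differed little. Dhh, the hedgehog ligand of Schwann and Sertoli cells, was at 5.97, 5.99, 5.99 and 5.95 in wild-type and 5.97, 5.99 and 5.99 in heterozygous mice of experiment 1, and at 5.99, 5.98 and 6.25 against 6.06, 5.91 and 5.99 in experiment 2. The membrane receptor gene Lmbr1l was at 7.11, 7.06, 6.99 and 7.05 against 7.05, 7.05 and 6.98, and then at 7.10, 7.23 and 7.0 against 7.07, 7.20 and 7.05. Both genes overlapped between the genotypes in each experiment. Tuba1a, the main alpha-tubulin of developing neurons, was at 12.53, 12.30, 12.40 and 12.53 against 12.53, 12.41 and 12.53 in experiment 1, and at 13.69, 13.56 and 13.58 against 13.62, 13.67 and 13.52 in experiment 2. Probe sets that the annotation gives to a tubulin of this cluster together with another gene were left out. Since the tubulin transcripts are much alike, signal from the other tubulins in the Tuba1a probe set cannot be told apart. The difference over both experiments was -0.04 ± 0.06 for Dhh, -0.01 ± 0.06 for Lmbr1l and 0.02 ± 0.06 for Tuba1a (SE).

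Back on the side of Prkag1, Arf3 and Fkbp11 were likewise level. Arf3, a GTPase of Golgi traffic, was at 12.13, 12.28, 12.23 and 12.17 against 12.27, 12.20 and 12.30 in experiment 1, and at 12.79, 12.77 and 12.83 against 12.82, 12.85 and 12.79 in experiment 2. Fkbp11, a protein-folding enzyme of the endoplasmic reticulum, was at 5.48, 5.75, 5.45 and 5.53 against 5.47, 5.63 and 5.58, and then at 6.27, 6.17 and 6.06 against 6.33, 6.15 and 6.08. Their genotypes overlapped in both experiments. Grouped by gene order, the 15 members within 10 protein-coding genes of Kmt2d had a median absolute difference of 0.042 over both experiments, against 0.043 for the 9 members at 11 to 20 genes and 0.067 for the 19 further out. Within the experiments the order was the other way, with 0.065 for the closest and 0.042 for the most distant members in experiment 1, and 0.08 and 0.074 in experiment 2. The median over all genes was 0.058 in experiment 1, 0.099 in experiment 2 and 0.056 over both.

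**Figure D2:**
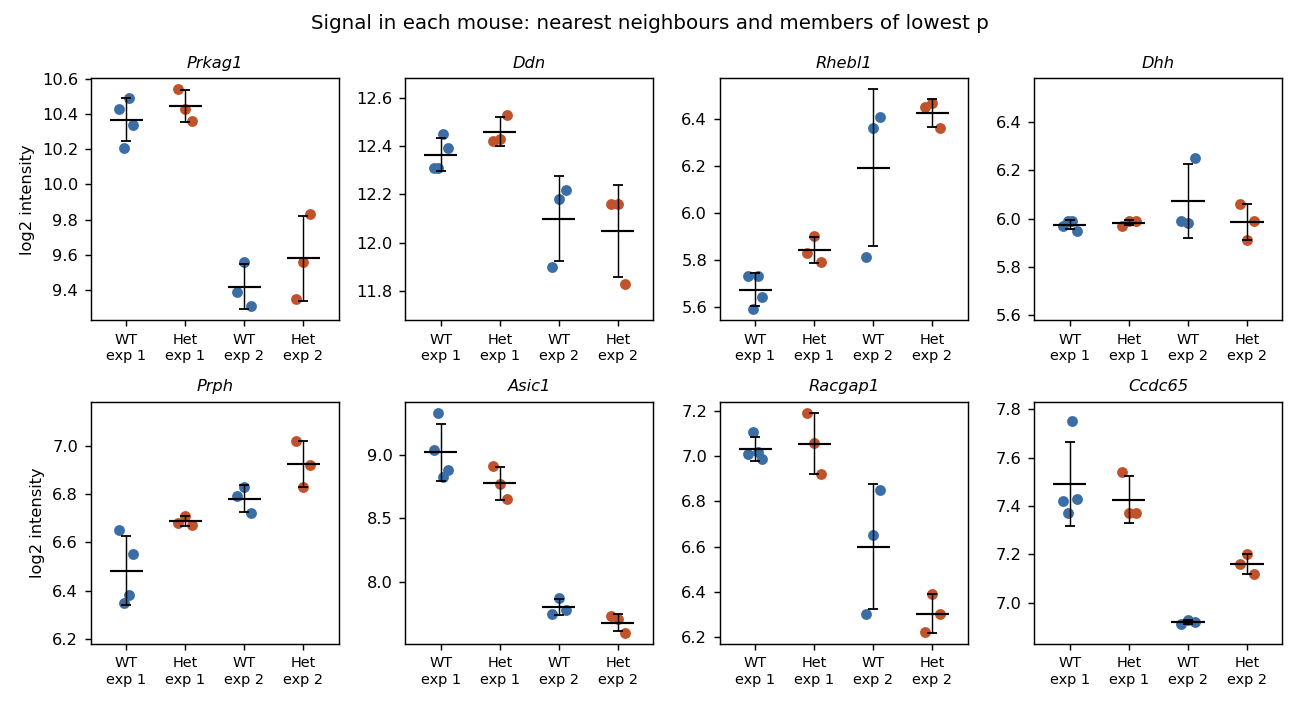
log2 intensity (vertical axis) of 8 members in each mouse, by genotype and experiment (WT, wild type; Het, heterozygous; 4, 3, 3 and 3 mice from left to right). Points are mice, the horizontal line is the mean and the bar is ± 1 SD. Genotypes overlap in both experiments for Prkag1, Ddn, Dhh and Racgap1, and separate in 1 experiment each for Rhebl1, Prph, Asic1 and Ccdc65.

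Prph had the lowest unadjusted p of the members over both experiments. It encodes peripherin, an intermediate filament of peripheral and some brainstem neurons. It was at 6.65, 6.35, 6.38 and 6.55 in wild-type and 6.68, 6.71 and 6.67 in heterozygous mice of experiment 1, and at 6.79, 6.83 and 6.72 against 7.02, 6.83 and 6.92 in experiment 2. Heterozygous mice were above all wild-type mice in experiment 1, and in experiment 2 the values of wild-type mouse 2 and heterozygous mouse 2 met. All 6 heterozygous mice were above the wild-type mean of their experiment, and the difference over both was 0.17 ± 0.06 (SE), 1.13-fold. The exact permutation p was 0.00857 and the limma p 0.0138, or 0.826 adjusted over all genes, with a range of 0.347 to 0.997 over the alternatives. Without the 3 arrays that stood apart in an earlier analysis of these data (wild-type mice 2 and 3 of experiment 1 and heterozygous mouse 3 of experiment 2), the difference was 0.11 over both experiments and 0.08 in experiment 1, against 0.20 in experiment 1 with all arrays.

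Asic1, an acid-sensing sodium channel of neurons, was the only member with an unadjusted p under 0.05 and a negative difference over both experiments. It was at 9.04, 9.33, 8.83 and 8.88 in wild-type and 8.91, 8.77 and 8.65 in heterozygous mice of experiment 1, and at 7.75, 7.87 and 7.78 against 7.73, 7.71 and 7.60 in experiment 2. The genotypes overlapped in experiment 1, while in experiment 2 all heterozygous mice were just below all wild-type mice, as for 5.17% of all genes. The difference over both experiments was -0.19 ± 0.08 (SE), with all 6 heterozygous mice below the wild-type mean of their experiment. The exact permutation p was 0.03 and the limma p 0.0316, or 0.917 adjusted, with a range of 0.439 to 0.997 over the alternatives. The highest value, 9.33, came from wild-type mouse 2 of experiment 1, the array with the high striatal genes. Without it the difference in experiment 1 was -0.14 in place of -0.25, and over both experiments it was -0.13. The part of the striatal signal in this value was not tested.

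In experiment 2, Racgap1 and Ccdc65 had the lowest unadjusted p-values. Racgap1, which acts in the cleavage of dividing cells, was at 6.30, 6.65 and 6.85 in wild-type and 6.22, 6.39 and 6.30 in heterozygous mice, a difference of -0.30 ± 0.12 (SE) with limma adjusted p = 0.418 and exact permutation p = 0.2. The genotypes overlapped, and the difference was -0.45 without wild-type mouse 1 (adjusted p = 0.114) and -0.18 without wild-type mouse 3. Adjusted p ranged from 0.114 to 0.916 over the alternatives. In experiment 1 Racgap1 was at 7.01, 7.11, 7.02 and 6.99 against 7.19, 7.06 and 6.92, a difference of 0.02 ± 0.11.

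Ccdc65 encodes a part of the regulatory complex between the microtubule doublets of motile cilia, which ependymal cells carry. In experiment 2 it was at 6.91, 6.93 and 6.92 in wild-type and 7.16, 7.20 and 7.12 in heterozygous mice. All heterozygous mice were above all wild-type mice, as for 4.32% of all genes, with a difference of 0.24 ± 0.10 (SE; limma adjusted p = 0.429, range over the alternatives 0.214 to 0.916). The exact permutation p was 0.1, the smallest that 3 against 3 mice can give. In experiment 1 it was at 7.42, 7.37, 7.75 and 7.43 against 7.54, 7.37 and 7.37, a difference of -0.07 ± 0.09 that was 0.02 without wild-type mouse 3. The difference between the experiments was 0.31 ± 0.14 (limma adjusted p = 0.756).

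Markers of ependymal cells are given beside Ccdc65. Of 10 such genes, 8 were higher in heterozygous mice of experiment 2, and their mean level relative to the experiment's mean ran from -0.18 to 0.05 in wild-type and from 0.04 to 0.19 in heterozygous mice. In experiment 1, 0 of the 10 were higher, at 0.07 to 0.30 in wild-type and -0.38 to -0.14 in heterozygous mice. The part of the ependymal signal in the Ccdc65 values was not tested.

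**Figure D3:**
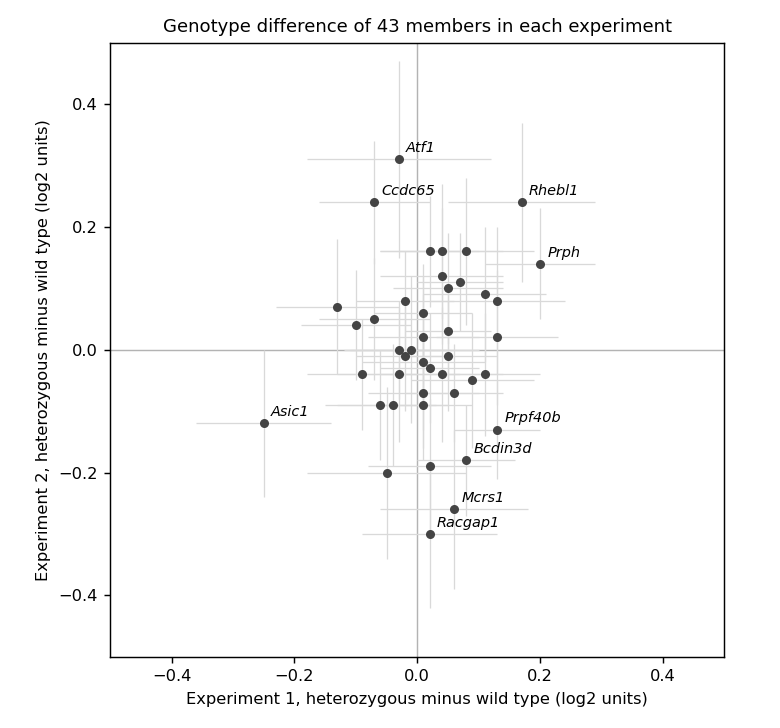
Genotype difference of the 43 measured members in experiment 1 (horizontal axis) against experiment 2 (vertical axis), both heterozygous minus wild type in log2 units, with bars of 1 SE. Of the 43 points, 36 lie within 0.2 of 0 on both axes. Among the labelled members, Rhebl1 and Prph are above 0 and Asic1 is below 0 in both experiments.

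Of the 43 members, 22 (51.2%) had the same sign in both experiments, as had 48.2% of all genes. None was separated by genotype in the same direction in both, where 0.321% of all genes were. In the test of a difference between the experiments, 0 of 43 members passed (all genes, 0%), and 2, Ccdc65 and Prpf40b, had an unadjusted limma p under 0.05 (all genes, 6.53%). The splicing factor gene Prpf40b was at 7.98, 8.03, 8.03 and 8.02 in wild-type and 8.15, 8.14 and 8.15 in heterozygous mice of experiment 1, and at 8.52, 8.38 and 8.41 against 8.27, 8.42 and 8.23 in experiment 2. It was thus higher in all heterozygous mice of experiment 1 by 0.13 ± 0.07, and overlapping in experiment 2 with a difference of -0.13 ± 0.08. The test of the difference between the experiments gave limma adjusted p = 0.756, which did not pass. Bcdin3d, an RNA methyltransferase gene, was at 7.09, 7.20, 7.28 and 7.14 against 7.32, 7.32 and 7.12 in experiment 1, and at 7.69, 7.68 and 7.64 against 7.56, 7.54 and 7.36 in experiment 2, where every heterozygous mouse was lower. Its difference between the experiments was -0.26 ± 0.12 (limma adjusted p = 0.761).

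Atf1, Mcrs1 and Senp1 were among the 5 members of lowest p in 1 comparison each. Atf1, a transcription factor of the CREB family, was at 7.16, 7.77 and 7.81 in wild-type and 8.14, 7.55 and 7.96 in heterozygous mice of experiment 2, with overlap between genotypes and, in the wild-type mice, the largest SD of any member in any group, 0.36. Its difference was 0.31 ± 0.16 there and -0.03 ± 0.15 in experiment 1, where it was at 8.30, 8.28, 8.45 and 8.28 against 8.44, 8.26 and 8.18. The value in experiment 2 was 0.10 without wild-type mouse 1, 0.18 without heterozygous mouse 1 and 0.47 without heterozygous mouse 2 (limma adjusted p = 0.773, 0.61 and 0.357). Mcrs1, a subunit of the NSL and INO80 chromatin complexes, was at 8.97, 8.94, 9.20 and 9.0 against 9.12, 9.12 and 9.02 in experiment 1, and at 8.70, 9.12 and 8.96 against 8.90, 8.74 and 8.38 in experiment 2, with overlap in both. The SUMO protease gene Senp1 was at 8.10, 8.04, 8.04 and 8.04 against 8.21, 8.13 and 8.04, and then at 7.82, 7.88 and 7.97 against 8.04, 8.02 and 7.95. Its difference over both experiments was 0.09 ± 0.05, with overlap in each, a limma p of 0.105 and an exact permutation p of 0.0271.

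By function, the members of neuronal membranes, synapses and signalling numbered 9, of which 6 were above 0 in experiment 1 and 2 in experiment 2, with a median of -0.029 over both. Besides Ddn, Asic1 and Dhh these were Amigo2, an adhesion protein of CA2 and CA3 pyramidal cells, at 8.43, 8.40, 8.56 and 8.45 against 8.64, 8.44 and 8.71 in experiment 1 and at 8.44, 8.17 and 8.29 against 8.19, 8.52 and 8.24 in experiment 2, both overlapping. CA2 and CA3 marker genes had a mean difference of 0 in experiment 1 and 0.01 in experiment 2. The GTPase gene Rnd1 differed by 0.02 ± 0.10 and -0.19 ± 0.11 in the experiments, the adenylyl cyclase Adcy6 by -0.01 ± 0.11 and 0.00 ± 0.12, and the cAMP-activated exchange factor Rapgef3 by -0.03 ± 0.10 and -0.04 ± 0.11. The Fas inhibitor Faim2 differed by 0.01 ± 0.09 and -0.07 ± 0.09, and the secreted C1q-like protein C1ql4 by 0.11 ± 0.09 and -0.04 ± 0.10. None of these had an unadjusted p under 0.05 except Asic1.

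Among cytoskeletal proteins and small GTPases, 7 of 8 were measured, with a median of 0.001 over both experiments and a range of -0.13 (Racgap1) to 0.20 (Rhebl1). The spindle protein Troap was at 0.00 ± 0.06, the actin-binding protein Lima1 at -0.01 ± 0.07 and the microtubule-associated protein Nckap5l at 0.00 ± 0.07. These 3 were level over both experiments, and their values in each lay between -0.07 and 0.06.

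The 7 members of chromatin and transcription had a median of 0.005 over both experiments. None had an unadjusted p under 0.05 on the probe set that stood for it, while the second probe set of Kansl2 is given below. The chromatin remodelling subunit Smarcd1 was at -0.07 ± 0.06, the NSL complex subunit Kansl2 at 0.08 ± 0.06, the vitamin D receptor Vdr at 0.02 ± 0.06, the zinc finger protein Zfp641 at 0.01 ± 0.07 and the polymerase assembly factor Rpap3 at -0.07 ± 0.06. Of the 5 members that act on RNA, all 5 were above 0 in experiment 1 and 3 in experiment 2 on the probe sets that stood for them. Their median was 0.073 over both. The spliceosome helicase Ddx23 was at 0.07 ± 0.06, the RNA-binding protein Larp4 at 0.08 ± 0.07 and Spats2 at 0.10 ± 0.07. None of the 5 had an unadjusted p under 0.05 in an experiment or over both. The third probe set of Larp4, also given below, was at -0.05 ± 0.14 in experiment 1.

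Of the transporters and metabolic enzymes, 6 of 7 were measured, and 5 of the 6 were below 0 over both experiments. The glutamine transporters Slc38a1 and Slc38a2 were at -0.01 ± 0.06 and -0.04 ± 0.08, the related transporter Slc38a4 at -0.04 ± 0.06 and the haem transporter Slc48a1 at -0.01 ± 0.06. Gpd1, a glycerol-3-phosphate dehydrogenase strong in oligodendrocytes, was at -0.12 ± 0.09. In experiment 2 it was at 10.30, 10.25 and 10.55 in wild-type and 10.27, 10.45 and 9.79 in heterozygous mice, where mouse 3 was low. The difference of Gpd1 was -0.05 in experiment 1 and -0.20 in experiment 2. Of 9 myelin genes, 0 were higher in heterozygous mice of experiment 1 (mean difference -0.28) and 8 in experiment 2 (0.20), and their part in the Gpd1 values was not tested.

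The remaining members span other functions. The chaperone gene Dnajc22 was at 4.82, 4.84, 4.83 and 4.86 in wild-type and 5.04, 4.93 and 4.94 in heterozygous mice of experiment 1, all higher, and at 5.51, 5.26 and 5.54 against 5.85, 5.39 and 5.32 in experiment 2, with overlap. Its difference was 0.11 ± 0.08 over both experiments (limma adjusted p = 0.934). The ubiquitin ligase adaptor Asb8 was at 0.10 ± 0.07, the cell death inhibitor Tmbim6 at -0.07 ± 0.07 and Dip2b at 0.03 ± 0.05.

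**Figure D4:**
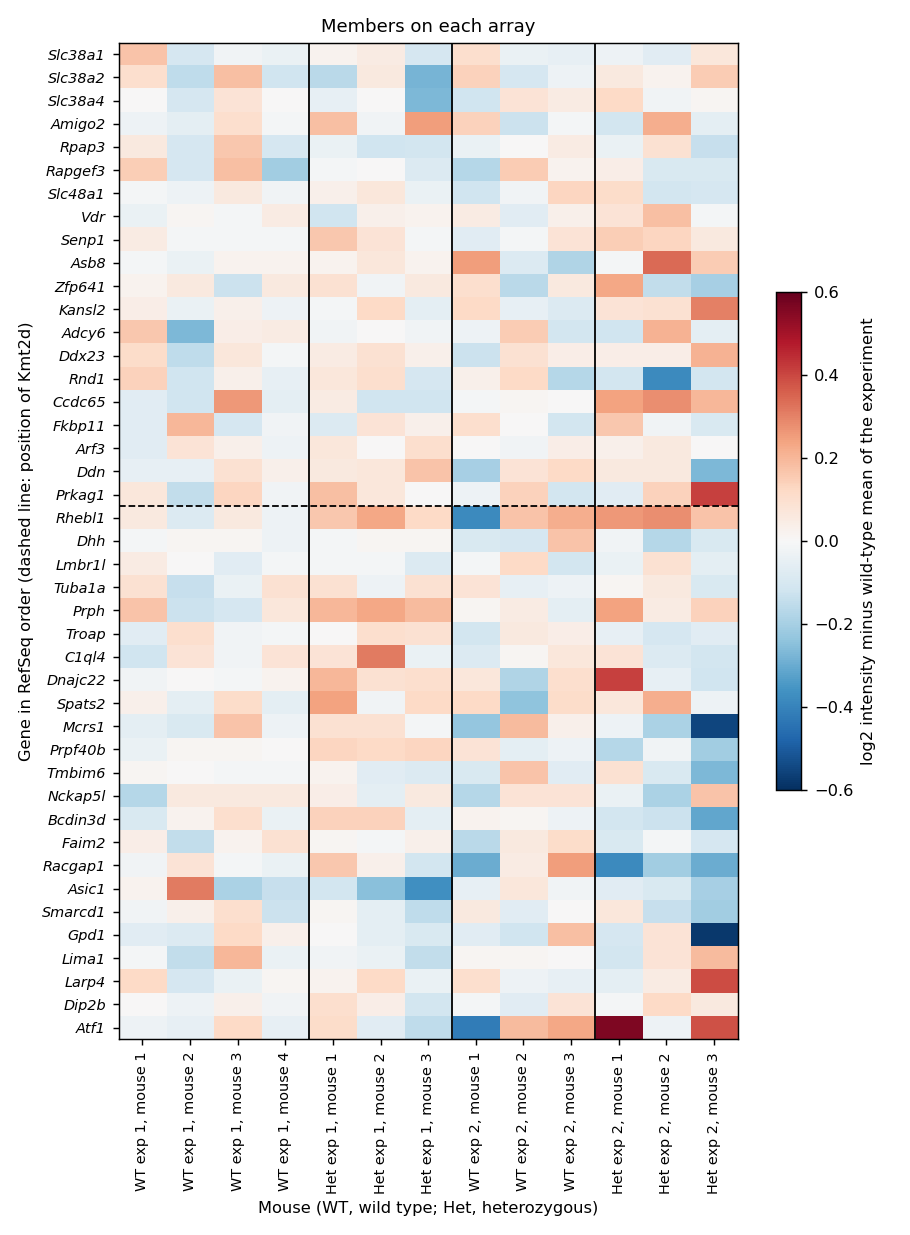
log2 intensity of each of the 43 members (rows, in RefSeq order, with the place of Kmt2d marked by a dashed line) in each of the 13 mice (columns), minus the wild-type mean of the same experiment (colour, log2 units). Of the members, Rhebl1, Ddx23 and Prph were above and Asic1 was below the wild-type mean in all 6 heterozygous mice. No pair of these is adjacent in the order, and the share of all genes with all 6 on 1 side was not counted. The deepest colours are single squares such as Gpd1 and Mcrs1 in heterozygous mouse 3 and Atf1 in heterozygous mouse 1 of experiment 2.

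Larp4, Kansl2 and Slc38a1 had further probe sets of their own. Genome positions of probe sets were not in the sources used, so whether all of these lie at this locus is not known. The 3 of Larp4 differed by 0.08 ± 0.07, 0.06 ± 0.06 and -0.01 ± 0.10 over both experiments, and the 2 of Kansl2 by 0.08 ± 0.06 and 0.11 ± 0.07. In experiment 2 the second of Kansl2 was at 8.98, 8.84 and 8.77 in wild-type and 9.01, 8.99 and 9.23 in heterozygous mice. Every heterozygous mouse was higher there, as for 4.32% of all genes. The difference was 0.21 ± 0.09 (SE), with a limma p of 0.0391, or 0.526 adjusted over all probe sets. The first of Kansl2 overlapped in experiment 2, at 0.16 ± 0.09. The second probe set of Slc38a1 was at 9.30, 8.98, 9.17 and 9.15 in wild-type and 8.97, 8.96 and 8.88 in heterozygous mice of experiment 1, where the first overlapped, at 11.24, 10.97, 11.05 and 11.03 against 11.09, 11.12 and 10.97. Their differences in experiment 1 were -0.22 ± 0.12 and -0.02 ± 0.08 (SE). Neither passed, and the difference between the probe sets was not tested.

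In RefSeq order, 31 other protein-coding genes lie between the outermost members, of which 28 were measured. None of the 28 passed an adjusted p of 0.05 in either experiment or over both. The sign was positive for 19 in experiment 1, or 67.9% (all genes, 57.5%). It was positive for 10 in experiment 2, or 35.7% (all genes, 47.1%), and 9 over both, or 32.1% (all genes, 51%). Their median difference was 0.028, -0.054 and -0.021 in turn (all genes, 0.015, -0.011 and 0.002). In experiment 2, 7 of the 28 lay over 0.25 from 0, or 25% (members, 6.98%, all genes, 10.6%). At an unadjusted limma p under 0.05 the count in experiment 1 was 1, or 3.57% (all genes, 3.5%). It was 5 in experiment 2, or 17.9% (all genes, 10.2%), and 1 over both, or 3.57% (all genes, 5.25%). Each of these shares rests on 1 or 5 genes. The 5 of experiment 2, all lower in heterozygous mice where 5.34% of all genes were, are Tmem106c, the olfactory receptor gene Olfr281, the signalling ligand gene Wnt10b, the histone deacetylase gene Hdac7 and Pced1b. The Wnt genes beside Ddn differed by -0.09 ± 0.10 (Wnt10b) and -0.06 ± 0.06 (Wnt1) over both.

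Tmem106c, a membrane protein gene 33 protein-coding genes from Kmt2d, had the lowest p of the stretch. It was at 9.08, 8.65, 9.0 and 9.0 in wild-type and 8.77, 8.69 and 8.64 in heterozygous mice of experiment 1, where wild-type mouse 2 was among the heterozygous values. In experiment 2 it was at 8.07, 8.25 and 8.33 against 7.83, 7.67 and 7.57, with every heterozygous mouse lower. The difference was -0.23 ± 0.11 in experiment 1, -0.52 ± 0.11 in experiment 2 and -0.37 ± 0.08 over both (1.29-fold; limma adjusted p = 0.392, range over the alternatives 0.0573 to 0.994). All 6 heterozygous mice were below the wild-type mean of their experiment, the exact permutation p over both was 0.00571, and without wild-type mouse 2 of experiment 1 the adjusted p over both was 0.0775. The nearest members before and after it in gene order, Vdr and Senp1, were at 0.02 ± 0.06 and 0.09 ± 0.05. Tmem106c was named after its values were seen.

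Between the experiments the members' levels in wild-type mice differed far more than between genotypes. From experiment 1 to experiment 2 the mean difference was -2.13 for Slc38a2 (11.16 to 9.03), -1.42 for Ddx23, -1.22 for Asic1 and 1.17 for Tuba1a (12.44 to 13.61). Of the 43 members 18 were higher and 25 lower in experiment 2, with a median of -0.15 (all genes, 0.08), and 16 differed by more than 0.5, as did 40.3% of all genes. Injections, RNA extraction and experiment cannot be told apart in this difference. Genotypes were therefore compared within experiments, where extraction and injections were the same.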

How the data were processed

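Hippocampal RNA of 13 mice was measured on Affymetrix arrays, and the deposited table holds log2 intensities, 1 per probe set and array, which the authors made with RMA in oligo, per the submitters' processing notes. Tool versions, the genome build and whether all arrays were normalised together were not stated in the sources used. Of 35556 probe sets, 21789 have 1 gene symbol in the platform annotation, 1621 have several and 12146 are not listed. Gene order is that of RefSeq (GRCm38.p6), used for names and neighbours only.

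The log2 values were tested with limma 3.58.1 in R 4.3.3 (with statmod 1.5.0), on 1 probe set per gene, with no filter on dim genes. Each experiment's genotype difference and the difference between experiments came from a model of the 4 groups, and the difference over both from genotype and experiment. Tests were two-sided. The exact permutation test moved genotype within experiments (35 regroupings in experiment 1, 20 in experiment 2 and 700 over both, with smallest p-values of 0.0286, 0.1 and 0.00143). The computation was tested on simulated data. Alternatives changed the probe sets, dim-gene filter, scaling, variance prior, array weights, block or arrays. The labels number the mice but do not say that they come from separate litters. The members and lists were chosen with earlier results of these data known. Every member was named. Values of every array were given for the nearest 4 on each side and the 5 of lowest p in each genotype comparison, and, after their values were seen, for Dnajc22 and Gpd1 (experiment 2). Of the members, 14 had tied values within a group, which the median polish of RMA can give, so a very small SD can understate the spread. The number of arrays limits the precision.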

Additional observations from a re-analysis of the deposited data

Results flagged for a closer look

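Among the wild-type mice of experiment 1, the only group of more than 3, a single mouse lay far from the other 3 for 6 of the 46 values read (43 members, Tmem106c and both Kmt2d probe sets), where chance gives about 1 in 20. Ccdc65 was at 7.75 in mouse 3, against 7.37 to 7.43 in the others. Atf1 was at 8.45 in mouse 3, against 8.28 to 8.30. In the other 4 the remaining mice had tied values, so that any gap stands out: Senp1 at 8.10 in mouse 1 against 8.04, Nckap5l at 8.26 in mouse 1 against 8.49, Kmt2d at 9.83 in mouse 3 against 9.82 on probe set 10432298, and at 7.90 in mouse 4 against 7.87 on probe set 10432294.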

How the results depend on the processing

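Under all 24 alternatives, 0 members passed an adjusted p of 0.05 in limma, and the lowest adjusted p of a member was 0.114. Counts at an unadjusted p under 0.05, higher then lower, were 1 and 1 in experiment 1, 1 and 1 in experiment 2 and 2 and 1 over both. In experiment 1 the higher count was 3 with array weights, 4 with the arrays of that experiment alone, and 0 without the dimmest 50% of genes, with the replicate block or without the 3 arrays that stood apart. The lower count was 0 with every probe set tested, quantile normalization, that experiment alone or without the 3 arrays. In experiment 2 the higher count was 2 with array weights and 0 without the dimmest 50% or with the block. The lower count was 3 with quantile normalization and 0 without the dimmest 50%, with that experiment alone or without the 3 arrays. Over both, the higher count was 1 without the dimmest 30% or with the block, and 0 without the dimmest 50% or the 3 arrays, where the lower count was also 0. The 30% and 50% filters left 36 and 27 members to test. With array weights the median difference in experiment 2 was 0.037 in place of -0.003. Leaving out 1 array gave higher counts of 0 to 1, 1 to 3 and 1 to 2, and lower counts of 0 to 1, 0 to 3 and 0 to 1, in experiment 1, experiment 2 and over both.

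Of 1069 single-gene values, 59 changed sign, 53 of them by under 1 SE with no call on either side. The other 6 were Tuba1a at -0.039 in experiment 1 without the 3 arrays and at 0.103 in experiment 2 with quantile normalization, Ddn in experiment 2 at 0.064 without the 3 arrays and between -0.147 and 0.064 with 1 array left out, and Bcdin3d at 0.054 and Mcrs1 at 0.014 over both with array weights. None of these was called, and the cause was not tested. Over all genes, array weights gave 163 calls in experiment 1 and 21 over both, against 4 and 0. Leaving out 1 array of the experiment gave 0 to 48 all-gene calls in experiment 1 and 0 to 91 in experiment 2.

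With the replicate block, all-gene calls were 1 in experiment 1, 0 in experiment 2 and 0 over both. Same-numbered mice correlated between -0.228 and 0.221, so the numbers were not taken as pairs. The number of arrays limits the precision, and tied values can understate the spread.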
